A study of Homo sapiens with 6 samples.

Results

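Genes of 10 RNA-binding proteins that steer splicing in epithelial-to-mesenchymal transition (EMT) were followed in H358 cells after lowering of RBM47, another RNA-binding protein. They were taken by symbol from the deposited table of 57150 genes: ESRP1, ESRP2, RBFOX2, QKI, MBNL1, MBNL2, MBNL3, PTBP1, PTBP3 and CELF1. All 10 of 10 symbols were found, each in 1 row, and all 10 passed the filter on low values. H358 is an established human lung cancer cell line of epithelial character. Polyadenylated RNA was sequenced from 3 libraries with lentiviral short hairpin RNA against RBM47 and from 3 libraries with a control knockdown. The series design calls these biological triplicates, and p-values measure the spread between them. Values are FPKM, by definition fragments scaled to transcript length and to the mapped fragments of the library. How the libraries were scaled to each other here is unknown. The values are summed over the transcripts of a gene, so that splice forms are not resolved.

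During EMT, many genes switch between an epithelial and a mesenchymal splice form. ESRP1 and ESRP2 are epithelial splicing regulators that promote the epithelial forms, and their transcripts are typically lost when cells become mesenchymal. RBFOX2 and QKI favour many mesenchymal forms, while the muscleblind proteins (MBNL), the polypyrimidine tract-binding proteins (PTBP) and CELF1 bind other short RNA motifs and act on many of the same transcripts in either direction, depending on where they bind.

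The knockdown and the cell type were checked first. RBM47 had 12.01, 13.4 and 13.5 FPKM under knockdown and 85.2, 92.4 and 87.9 FPKM in the controls, so that 14.6% of its control mean was left. The line carried epithelial markers at high levels, with E-cadherin (CDH1) at 431 to 481 FPKM under knockdown and 546 to 588 FPKM in the controls. Vimentin (VIM), a mesenchymal filament gene, was at 57.6 to 74.0 and 58.6 to 63.3 FPKM. Summed over 4 other sets of markers, immune genes lay between 1.404 and 2.04 FPKM, endothelial genes between 1.501 and 2.33, muscle and neuron genes between 0.257 and 0.754, and fibroblast genes between 27.1 and 36.0. Most of the fibroblast sum came from LUM and COL1A1, and THY1 was listed at 0. Total FPKM ran from 651951 to 673552 per library, and the fragment depth behind the values is unknown.

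Of the 10 regulators, 1 rose and 1 fell when RBM47 was lowered. RBFOX2 rose, ESRP1 fell, and the other 8 did not pass the threshold (limma, adjusted p under 0.05 over 14419 genes). Over all tested genes 11.4% passed, 5.1% higher and 6.34% lower, so that 2 of 10 is not far from the background share. At an unadjusted p under 0.05 the same 2 genes passed, against 28.4% of all tested genes. The median log2 fold change of the 10 was 0.03, against 0.01 over all tested genes, and their median absolute log2 fold change was 0.05, against 0.13. Their median SE was smaller too, at 0.066 against 0.085, and the comparison is not matched for level. The 3 knockdown and 3 control values did not overlap in 3 of the 10 genes, and in 34% of all tested genes. An exact permutation test of 3 against 3 cannot give a two-sided p below 0.1, the value it gave for those 3 genes, RBFOX2, ESRP1 and CELF1.

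**Figure D1:**
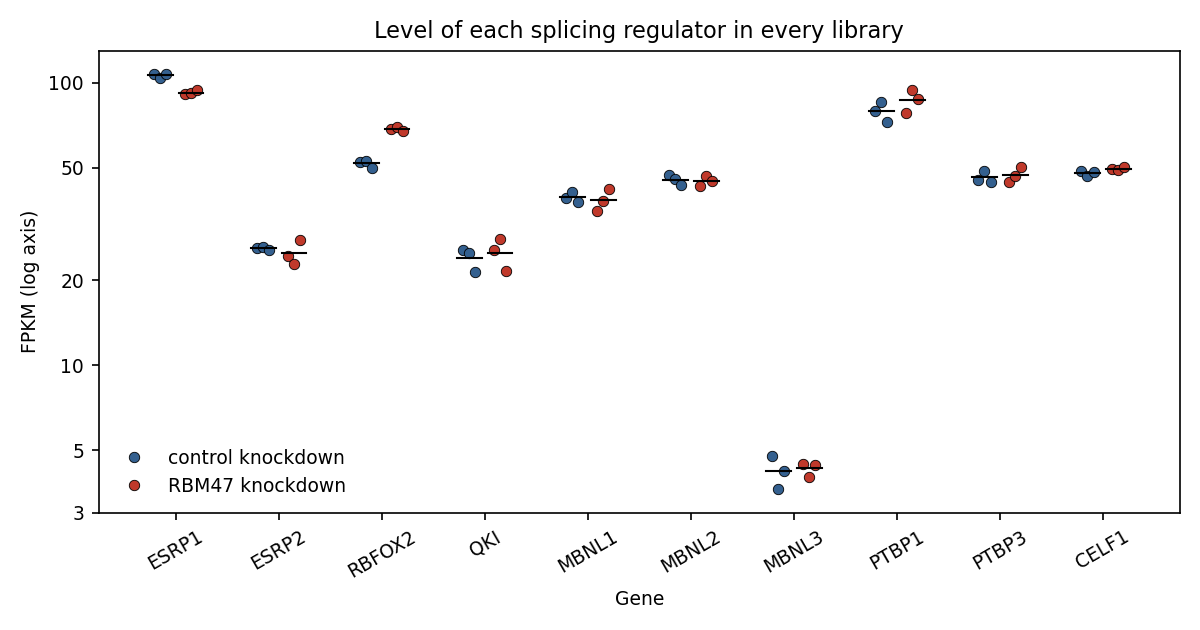
FPKM of each of the 10 regulators in every library, on a log axis, with control knockdown in blue, RBM47 knockdown in red and group means as lines. The red RBFOX2 points lie at 67.6 to 69.9 FPKM, above the blue points at 49.99 to 53.0, and MBNL3 lies far below the others at 3.66 to 4.76 FPKM.

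All 10 regulators were transcribed in these cells, at levels more than an order of magnitude apart. On the FPKM scale, which is per length, ESRP1 was the highest with a mean of 99.4 over the 6 libraries, followed by PTBP1 (83.0), RBFOX2 (60.3), CELF1 (48.8), PTBP3 (46.8), MBNL2 (45.2), MBNL1 (38.9), ESRP2 (25.5), QKI (24.5) and MBNL3 (4.26). ESRP1 stood at percentile 93.6 of the levels of all tested genes and MBNL3 at percentile 24.4. Several neighbours in this order did not differ beyond their spread. CELF1 was above PTBP3 in 4 of 6 libraries, PTBP3 above MBNL2 in 4 of 6, and ESRP2 above QKI in all 3 control libraries but in 1 of 3 knockdown libraries. ESRP1 was above PTBP1 in 5 of 6 libraries. The ranges of PTBP1 and RBFOX2, of MBNL2 and MBNL1, of MBNL1 and ESRP2, and of QKI and MBNL3 did not overlap. The table gives 9 of the 10 genes a locus that it also gives to other genes, QKI being the exception, and how shared reads were assigned is unknown.

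ESRP1 was the regulator that fell. The gene (ENSG00000104413) spans 95653302 to 95719694 on chromosome 8 (hg19) and encodes the protein that drives epithelial splice forms of genes such as FGFR2 and CD44. Its level was 91.2, 92.0 and 94.2 FPKM under RBM47 knockdown and 107.4, 104.4 and 107.5 FPKM in the controls. Every knockdown library was below every control library. Its mean was 92.5 ± 1.55 FPKM under knockdown and 106.4 ± 1.77 FPKM in the controls (SD, n = 3), which leaves 86.9%. The log2 fold change on the log2(FPKM + 1) scale was -0.20 (SE 0.04, 95% interval -0.29 to -0.11; limma, adjusted p = 0.019). This is a small change, with 30.3% of all tested genes and 95.6% of the 1650 called genes larger in absolute log2 fold change. The call was lost with quantile normalization (log2 fold change -0.14, adjusted p = 0.0528), without trend in limma (0.0582) and with a block for replicate number (0.0748). It was also lost in 4 of the 6 fits without 1 library: knockdown replicate 1 (0.0571), knockdown replicate 2 (0.0736), control replicate 1 (0.0542) and control replicate 3 (0.0706).

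ESRP2 was not called. This paralog of ESRP1, which acts on largely the same splice events, lies in a locus on chromosome 16 (68021297 to 68272005, hg19) that the table gives to 18 genes. It was listed at 24.4, 22.9 and 27.7 FPKM under knockdown and at 26.0, 26.3 and 25.6 FPKM in the controls. The groups overlap, and the knockdown values spread on both sides of the controls. The log2 fold change was -0.06 (95% interval -0.23 to 0.11; limma, adjusted p = 0.64). ESRP1 made up 77.3 to 80.1% of the summed ESRP FPKM under knockdown and 79.9 to 80.7% in the controls. The sum of both was 117 ± 3.86 FPKM under knockdown and 132 ± 1.505 FPKM in the controls, without overlap. Since ESRP1 makes up most of this sum, the sum largely repeats the fall of ESRP1. Of 8 epithelial markers, 6 fell and none rose, where 6.34% of all tested genes fell. This count was not repeated under other settings. The markers had high means of 83.4 to 787 FPKM, and the share over all tested genes is not matched for level. EPCAM (-0.12) and CLDN4 (-0.03) were not called, and KRT8 and KRT18, both called, share a locus. CDH1, among the 6, kept its call in 4 of 6 fits that left out 1 library (highest adjusted p 0.0581 by limma). The summed level of the 8 markers was 3362 to 3460 FPKM under knockdown against 3988 to 4267 in the controls. The part of this lower summed marker level in the ESRP1 result was not tested.

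RBFOX2 was the regulator that rose. It spans 36134783 to 36424473 on chromosome 22 (hg19, ENSG00000100320) and encodes a protein that binds the RNA letters UGCAUG near exons and promotes or blocks their inclusion according to position. It was at 68.6, 69.9 and 67.6 FPKM under knockdown and at 52.6, 53.0 and 49.99 FPKM in the controls. The gap between the groups was larger than the spread within either. Means were 68.7 ± 1.14 and 51.9 ± 1.64 FPKM (SD, n = 3 each), a 1.32-fold difference. The log2 fold change was 0.40 (SE 0.04, 95% interval 0.30 to 0.50; limma, adjusted p = 0.00298). In absolute log2 fold change, 8.08% of all tested genes and 40.8% of called genes were larger. RBFOX2 passed the threshold in each of the 16 other fits, 6 of which left out 1 library, with log2 fold changes of 0.37 to 0.44.

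The balance between RBFOX2 and ESRP1 transcripts differed between the groups. The ratio of RBFOX2 FPKM to ESRP1 FPKM was 0.753, 0.759 and 0.718 under knockdown and 0.490, 0.507 and 0.465 in the controls. ESRP1 remained the more abundant transcript in every library. The ratio of RBFOX2 to QKI was 2.69, 2.50 and 3.14 under knockdown and 2.06, 2.13 and 2.34 in the controls. Both ratios separated the groups without overlap and are given as a description, since RBFOX2 and ESRP1 were known to differ. QKI was not called, so the second ratio largely repeats the rise of RBFOX2.

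**Figure D2:**
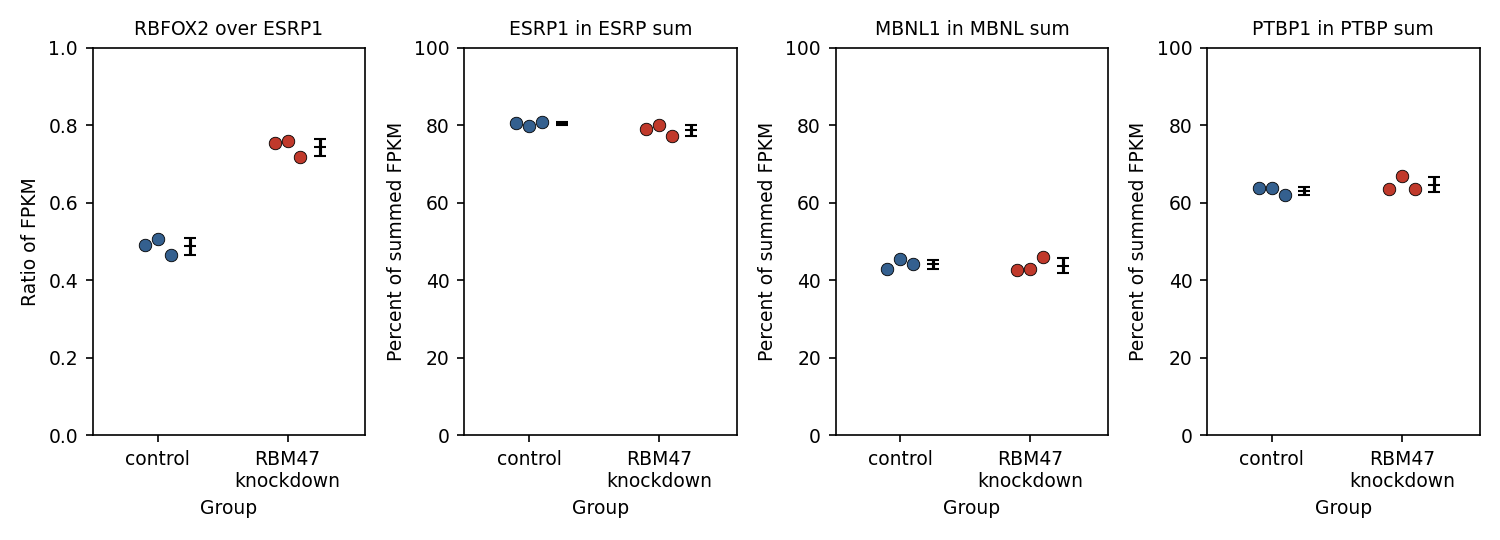
Ratio of RBFOX2 to ESRP1 FPKM, and the percent of ESRP1, MBNL1 and PTBP1 in the summed FPKM of their families, per library, with the mean and SD (n = 3) beside each group. The ratio is 0.465 to 0.507 in the controls and 0.718 to 0.759 under knockdown, while the shares overlap between groups.

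QKI, whose protein binds ACUAAC-like RNA motifs and is known for promoting circular RNAs and mesenchymal splice forms, was not called. The gene is alone in its locus on chromosome 6 (163835032 to 163999628, hg19). It was at 25.5, 27.9 and 21.5 FPKM under knockdown and at 25.5, 24.9 and 21.3 FPKM in the controls. The groups overlap, and replicate 3 was the lowest library of each. The log2 fold change was 0.06 (95% interval -0.19 to 0.30; limma, adjusted p = 0.766). This interval is wide beside the change of RBFOX2, and includes a rise of up to 0.30.

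None of the muscleblind genes was called. MBNL1, the first described member of a family that is sequestered by expanded repeats in myotonic dystrophy, was at 35.2, 38.1 and 42.1 FPKM under knockdown and at 39.2, 41.0 and 37.7 FPKM in the controls. MBNL2, a paralog with a leading role in brain, was at 43.1, 46.9 and 45.1 FPKM under knockdown and at 47.1, 45.7 and 43.5 FPKM in the controls. MBNL3, the X-linked paralog, was at 4.48, 4.03 and 4.44 FPKM under knockdown and at 4.76, 3.66 and 4.201 FPKM in the controls. In each of these 3 genes the groups overlap. Log2 fold changes were -0.03 for MBNL1 (95% interval -0.20 to 0.13; limma, adjusted p = 0.801), -0.01 for MBNL2 (-0.14 to 0.11; 0.905) and 0.03 for MBNL3 (-0.21 to 0.28; 0.865). The make-up of the family overlapped between groups too, with MBNL2 at 49.2 to 52.7% of the summed FPKM under knockdown and 50.6 to 51.7% in the controls. MBNL1 followed at 42.5 to 45.9% and 43.0 to 45.4%, and MBNL3 at 4.53 to 5.40% and 4.05 to 5.23%. The family sum was 87.8 ± 4.49 and 88.9 ± 3.07 FPKM (SD, n = 3). MBNL3 shares its locus with RAP2C, which had a mean of 22.2 FPKM.

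The polypyrimidine tract-binding genes were not called either. PTBP1, a repressor of exons flanked by pyrimidine-rich RNA, had the largest log2 fold change among the 8 genes not past the threshold. It was at 78.2, 94.5 and 87.8 FPKM under knockdown and at 79.6, 85.5 and 72.6 FPKM in the controls. The groups overlap, since knockdown replicate 1 lay within the control range. The log2 fold change was 0.13 (SE 0.08, 95% interval -0.06 to 0.32; limma, adjusted p = 0.347). PTBP3, a paralog with overlapping targets, was at 44.6, 46.8 and 50.4 FPKM under knockdown and at 45.3, 48.7 and 44.7 FPKM in the controls. Its groups overlap, and its log2 fold change was 0.03 (95% interval -0.11 to 0.17; adjusted p = 0.785). PTBP1 made up 63.5 to 66.9% of the summed FPKM of both under knockdown and 61.9 to 63.7% in the controls.

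CELF1, which binds GU-rich RNA and opposes MBNL proteins at several exons, was not called. It was at 49.4, 49.1 and 50.2 FPKM under knockdown and at 48.9, 46.8 and 48.2 FPKM in the controls. The groups did not overlap, but they were close to each other, with means of 49.6 ± 0.571 and 48.0 ± 1.04 FPKM. The log2 fold change was 0.05 (SE 0.04, 95% interval -0.05 to 0.15; limma, adjusted p = 0.517). CELF1 lies in a locus of 9 genes in the table (chromosome 11, 47487496 to 47606114, hg19), where NDUFS3 had a mean of 25.8 FPKM.

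**Figure D3:**
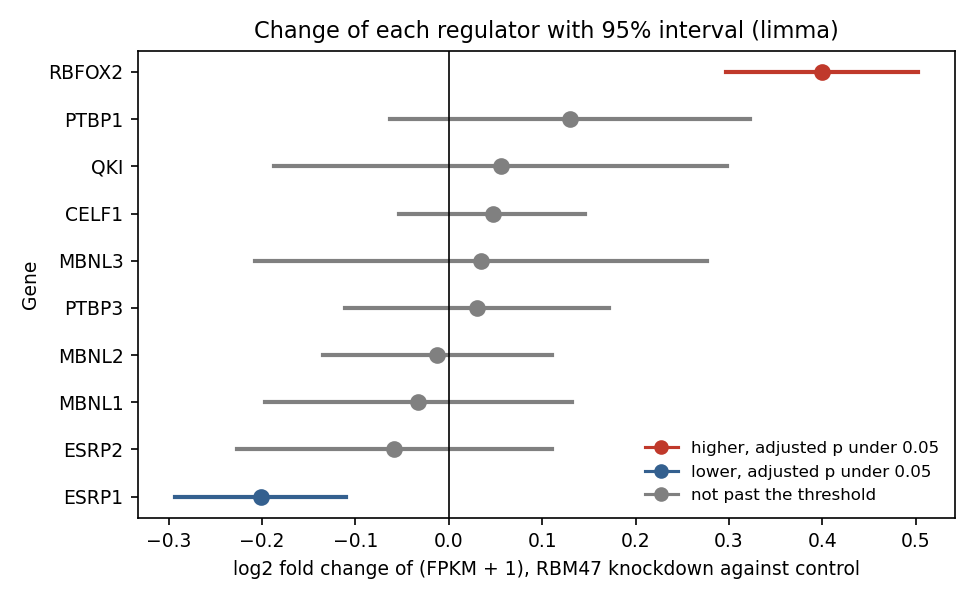
Log2 fold change of each regulator with its 95% interval from limma, on the log2(FPKM + 1) scale, RBM47 knockdown against control. The RBFOX2 interval (0.30 to 0.50) and the ESRP1 interval (-0.29 to -0.11) lie apart from 0, and the other 8 intervals contain 0 and stay between -0.23 and 0.32.

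Across the 8 regulators not past the threshold, the 95% intervals ran from -0.23 (ESRP2) to 0.32 (PTBP1) on the log2 scale. The coefficient of variation within a group of 3 ranged from 1.15% (CELF1 under knockdown) to 13.2% (MBNL3 in the controls) across the 10 genes.

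Close paralogs of the regulators were mostly low in H358 cells. Of 8 paralogs, 3 could be tested of which 0 passed limma's threshold, and 0 had an unadjusted p under 0.05. Over all tested genes these shares were 11.4% and 28.4%, and 3 genes are too few to differ from them. PTBP2, the neuronal relative of PTBP1, was at 11.5, 13.6 and 12.7 FPKM under knockdown and at 11.3, 12.3 and 11.2 FPKM in the controls (log2 fold change 0.11, limma, adjusted p = 0.397). CELF4 had a mean of 2.203 ± 0.299 FPKM under knockdown and 1.67 ± 0.902 FPKM in the controls (0.31, adjusted p = 0.403). RBFOX1 was listed at 0 in every library, so that RBFOX2 was the main transcript of its family here, with RBFOX3 at a mean of 0.00728 and 0.00614 FPKM.

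Of 30 tested genes of other RNA-binding proteins linked to EMT splicing, among them hnRNP and SR proteins, 1 was higher and none lower, with a median log2 fold change of 0.04. Over all tested genes 5.1% were higher and 6.34% lower. The one that rose was RBM38, a p53-induced protein that acts on splicing and mRNA stability. RBM38 was at 31.4, 31.4 and 31.0 FPKM under knockdown and at 25.4, 25.8 and 25.2 FPKM in the controls (log2 fold change 0.29, SE 0.04, limma, adjusted p = 0.00872), without overlap. Of 11 genes of the splicing and RNA maturation machinery 1 was higher and none lower (median 0.06). CPSF6, a subunit of the cleavage factor that selects polyadenylation sites, was at 39.9, 39.9 and 40.0 FPKM under knockdown and at 36.0, 35.0 and 32.6 FPKM in the controls. Its log2 fold change was 0.21 (limma, adjusted p = 0.0421), and the call was lost in all 6 fits that left out 1 library (0.0576 to 0.124).

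Of 34 tested genes with known epithelial and mesenchymal splice forms 3 were higher, 3 lower and 28 not past the threshold, with a median of -0.02. Over all tested genes 11.4% were called. Leaving out knockdown replicate 2 or control replicate 3 gave 0 calls in this list, control replicate 1 gave 1, control replicate 2 gave 2 and knockdown replicate 1 gave 3. FGFR2, whose epithelial receptor form depends on the ESRP proteins, was at 1.72, 1.48 and 1.72 FPKM under knockdown and at 3.05, 2.63 and 3.62 FPKM in the controls (log2 fold change -0.63, SE 0.13, limma, adjusted p = 0.020). FGFR3, a related receptor, was at 5.75, 6.30 and 4.39 FPKM under knockdown and at 2.84, 3.17 and 3.46 FPKM in the controls (0.63, adjusted p = 0.0224). Neither gene's groups overlap. RPS24, a ribosomal protein gene with a cell-type-dependent last exon, rose by 0.24 on the log2 scale (adjusted p = 0.0195 by limma). MLPH (-0.23) and RALGPS2 (0.21) were also called, and are named after their values were seen. CD44, CTNND1 and ENAH, classic switched transcripts also named after their values were seen, lay at -0.06, -0.05 and 0.04 on the log2 scale (adjusted p = 0.411, 0.405 and 0.778 by limma). When 1 library was left out, FGFR2 lost its call in 3 of 6 fits (highest adjusted p 0.0727), FGFR3 in 5 (0.0814) and RPS24 in 4 (0.0778).

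Transcription factors that set the epithelial or mesenchymal state gave 1 higher and 1 lower gene of 10 tested (median -0.04), beside 11.4% called over all tested genes. SNAI1, a repressor of epithelial genes, was at 6.06, 6.81 and 5.06 FPKM under knockdown and at 2.40, 3.29 and 3.47 FPKM in the controls (log2 fold change 0.79, SE 0.14, limma, adjusted p = 0.0137). Its call was lost without RBM47 knockdown replicates 1 (0.0501) or 2 (0.0598). ELF3, an epithelial ETS factor, was at 184, 182 and 184 FPKM under knockdown and at 198, 205 and 207 FPKM in the controls (-0.15, adjusted p = 0.0447), a call lost in all 6 fits that left out 1 library (0.0548 to 0.14). ZEB1 and ZEB2, repressors of ESRP1, were under the filter, with means of 0.729 and 0.939 FPKM under knockdown and 0.900 and 0.940 FPKM in the controls. TWIST1 and TWIST2 were listed at 0 in every library. Groups did not overlap in 5 of the 10 tested factors, against 34% of all tested genes. Besides SNAI1 and ELF3 these were SNAI2 (log2 fold change -0.19), GRHL2 (0.16) and EHF (-0.28), named after their values were seen. They were not called (limma, adjusted p = 0.154, 0.154 and 0.0559).

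**Figure D4:**
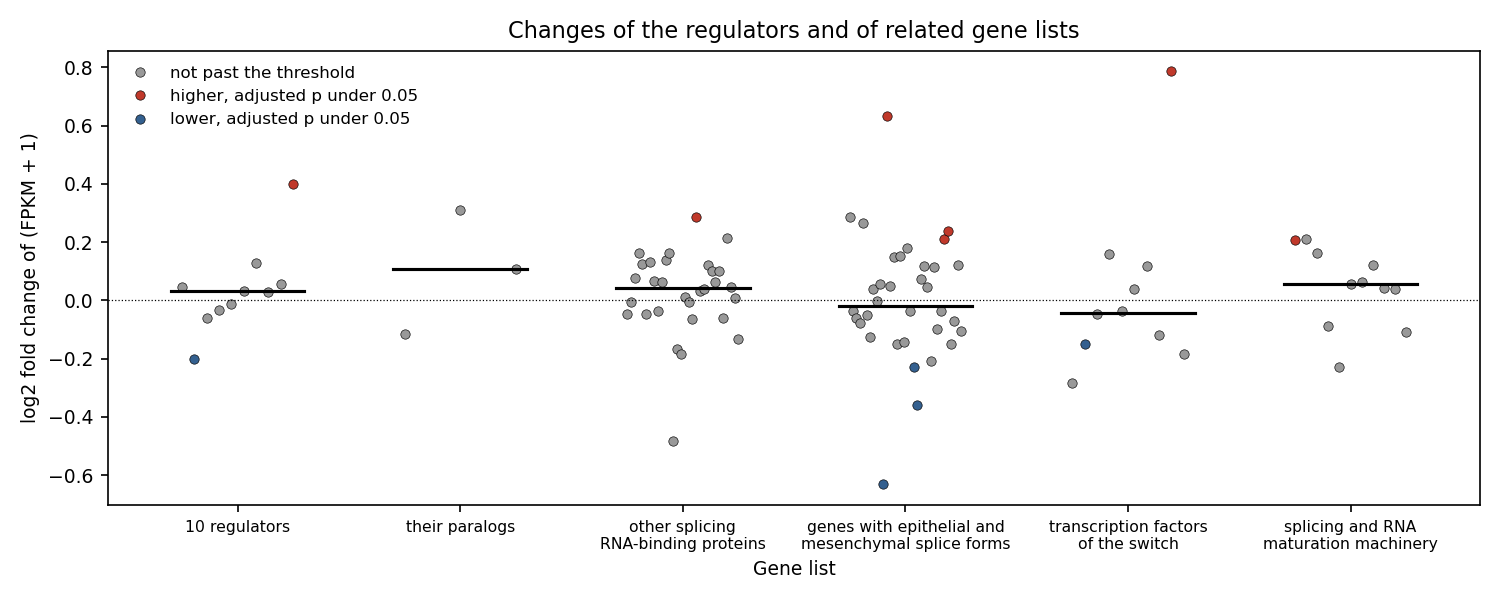
Log2 fold change on the log2(FPKM + 1) scale of each tested gene in the 10 regulators and in 5 related lists, with red and blue points past the threshold and lines at the list medians. The medians lie between -0.04 and 0.11, and most points in every list are grey.

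The 3′ untranslated regions of the regulators varied widely in length, with a median above that of tested genes with a complete coding transcript. In the longest complete coding transcript of each gene in GENCODE release 29, matched by Ensembl identifier for all 10, the region had a median of 4436 bases, against 1291 bases over 11867 tested genes. It ranged from 1100 bases in ESRP2, below that median, to 10349 bases in MBNL3. ESRP1 (1577 bases) and PTBP1 (1501 bases) were near the middle of those 11867 genes. Its median GC content was 35.0%, against 42.1%. The genes had a median of 6 annotated coding transcripts, against 3, and FPKM sums over them. The FPKM of each gene therefore does not show which of these transcripts was present.

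The letters TGCATG (RBFOX motif, UGCAUG in RNA) were looked for on the transcript strand in these regions. They are given for the gene that rose, RBFOX2, and for the other regulators that hold them. TGCATG occurred in 8 of the 10 regions, against 35.9% of the 11867 tested genes with a complete coding transcript. The share was 54.4% in the 6411 of them with regions between the shortest and the longest of the 10. Those 6411 regions had a median of 2457 bases, shorter than the 4436 of the regulators, so that length is not matched. QKI and MBNL3 held 7 occurrences each, MBNL1 4, PTBP3 2, and RBFOX2, ESRP2, MBNL2 and CELF1 1 each. ESRP1 and PTBP1 held none. ACTAAC (QKI motif, which does not overlap the other) occurred in 4 of the 10 regions, against 18.9% of the 11867 genes and 29.1% of those 6411. The density over all 10 regions was 0.517 TGCATG per kilobase, against 0.314 over the 11867 genes, and 0.129 ACTAAC, against 0.128. Most of these TGCATG occurrences lay in QKI and MBNL3, which also have the longest of the 10 regions. A match describes letters and does not show binding. The first TGCATG of each region is given after its gene name in 24 bases, 5′ to 3′ and in DNA letters, with the motif in capitals. Positions counted from the first base after the stop codon are 2885 in RBFOX2, 198 in ESRP2, 460 in QKI, 141 in MBNL1, 104 in MBNL2, 702 in MBNL3, 573 in PTBP3 and 4132 in CELF1.
RBFOX2: cacagtacaTGCATGattcttttt
ESRP2: gctggacccTGCATGcagggctgg
QKI: gatgcatcaTGCATGaaccttcgg
MBNL1: tccacatatTGCATGttaaccaga
MBNL2: gccacaaacTGCATGctaaataaa
MBNL3: tcattaacaTGCATGtgtataatt
PTBP3: ttataaaccTGCATGttttctttg
CELF1: aaaaagtttTGCATGtttcctgct

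**Figure D5:**
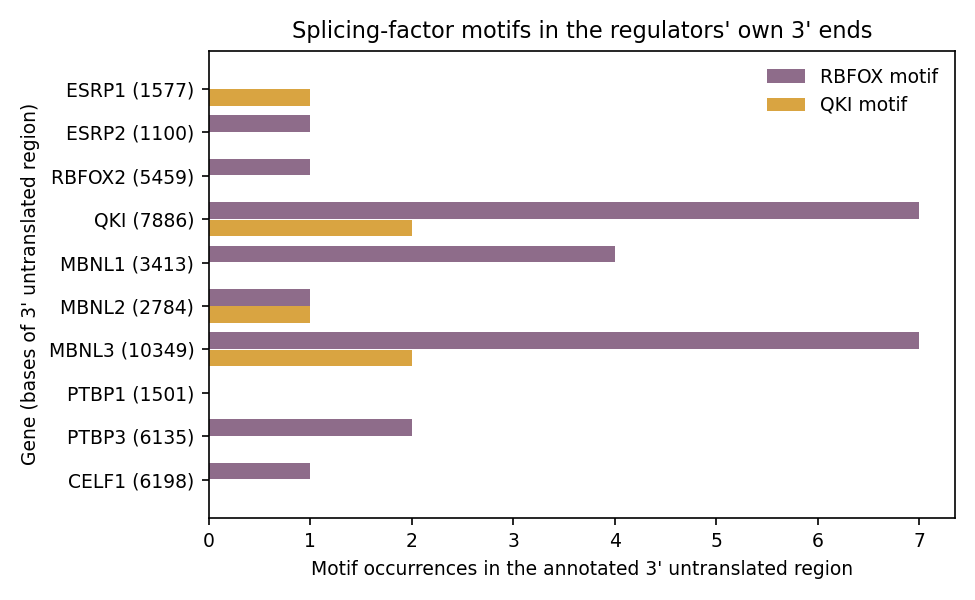
Number of TGCATG (RBFOX motif) and ACTAAC (QKI motif) occurrences in the annotated 3′ untranslated region of each regulator, with its length in bases in the axis label. QKI and MBNL3 have 7 RBFOX motifs each, and PTBP1 has neither motif.

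Whether the RBFOX motif count goes with the change of the transcript cannot be told here, since 8 of the 10 genes were not called. MBNL3 and QKI, with 7 occurrences, had log2 fold changes of 0.03 and 0.06. MBNL1, with 4, had -0.03 and PTBP3, with 2, had 0.03. RBFOX2, with 1 occurrence, had 0.40, and ESRP2, MBNL2 and CELF1, also with 1 each, had -0.06, -0.01 and 0.05. ESRP1, with none, had -0.20, and PTBP1, with none, had 0.13. These values are set side by side as a description of 10 genes, with no test.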

How the data were processed

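Libraries were stranded, selected for mRNA (Illumina kit) and read from both ends, per the labels' protocols and titles. The authors deposited one table of FPKM per gene, and hg19, TopHat 1.4.1 and Cuffdiff 2.2.0 appear in the submitters' processing notes. The sources used here give neither the scaling between libraries nor the use of strand. A count test was not run on FPKM. The 14419 genes whose mean reached 1 FPKM were tested for knockdown against control with limma 3.58.1 (R 4.3.3, trended prior) on log2(FPKM + 1), with Benjamini-Hochberg adjustment over all of them. A fold change on this scale understates that of low genes. Starts are counted from 1. No 2 libraries were identical.

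The 10 genes, the lists and the tests were chosen with earlier results of these data known. Named were the 10 genes, RBM47, CDH1 and VIM, and in each list up to 4 called genes that changed most or, with none called, the 2 most abundant. A gene that this rule took is not reported here. Alternatives covered pseudocounts, filters, scaling, limma options, a replicate block and leaving out each library. The test was also run on simulated data with added rises larger than the changes of RBFOX2 and ESRP1. That run does not show how well changes of their size are found. Motifs were counted without self-overlap. Figures used matplotlib 3.10.9 (Python 3.11.15).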

Additional observations from a re-analysis of the deposited data

How the results depend on the processing

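RBFOX2 stayed past the threshold in all 16 alternatives (log2 fold change 0.37 to 0.44). ESRP1 kept its sign in all 16 and its call in 9. It lost it with quantile normalization (-0.145, adjusted p = 0.0528), in limma without trend (-0.201, 0.0582) and with the replicate block (-0.201, 0.0748), so that 0 regulators were called lower there. In fits that left out 1 library its log2 fold change was -0.215 to -0.191, with 0 to 1 regulators called lower. The call held when knockdown replicate 3 (0.0271) or control replicate 2 (0.04997) was left out. The 8 other regulators stayed under the threshold in every alternative that tested them (MBNL3 fell below the filter at 5 FPKM), and near 0 some changed sign. MBNL2 was at 0.011 with the same total FPKM, 0.020 with quantile normalization and 0.006 with array weights, and MBNL3 at -0.010 with quantile normalization. Without 1 library the ranges were -0.133 to 0.001 for ESRP2, -0.025 to 0.154 for QKI, -0.098 to 0.027 for MBNL1, -0.043 to 0.018 for MBNL2, -0.044 to 0.11 for MBNL3 and -0.017 to 0.07 for PTBP3.

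Over all genes, 736 were called higher and 914 lower. These counts were 366 and 550 with no filter, and 235 to 483 and 395 to 772 without 1 library. Calls in the other RNA-binding proteins (1) were 2 with the filter at 5 FPKM, 3 with the same total FPKM, 2 with the same upper quartile, 4 with quantile normalization, 3 with array weights and 1 to 2 without 1 library. Calls in genes with known splice forms (6) were 1 with no filter and 0 to 6 without 1 library. Calls among transcription factors (2) were 0 with no filter, 1 with each of the 3 scalings and without trend, and 0 to 2 without 1 library. Calls in the splicing machinery (1) were 0 with no filter and without trend, 3 with quantile normalization, and 0 without any 1 library. Fits without 1 library hold fewer libraries, and the fit with no filter holds more genes. The cause of these shifts was not tested.

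The replicate numbers showed no evident pairing of the libraries, though 3 libraries per group cannot exclude shared handling. Deviations from the group means correlated at 0.019, -0.096 and 0.077 between knockdown and control libraries of the same number. With the replicate block, 348 genes were called higher and 489 lower, 1 regulator higher and 0 lower, 1 gene with known splice forms, 1 transcription factor and 0 of the splicing machinery. The sum over several rows of a symbol was not run, since each regulator has 1 row. The median log2 fold change of all tested genes was 0.006 as deposited and 0.001 to 0.028 under the 3 scalings. Fragment depth is unknown, so precision at the low level of MBNL3 cannot be given.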
